A study of Mus musculus with 2 samples.

Results

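The genes described here are 9 neurotrophic and pain-linked genes: the neurotrophins Bdnf and Ntf3, the related ligands Gdnf and Artn, the neurotrophin receptors Ngfr, Ntrk2 and Ntrk3, the substance P receptor Tacr1, and Penk, which encodes the precursor of the enkephalins. They were chosen by symbol from the 32285 genes of the count matrices, and all 9 were found. Synovium, the soft lining of the joint, was profiled by single-cell RNA-seq (10x Genomics 3' v3.1) from mouse knees of wild-type genotype, with 1 library of control mice and 1 library of mice labelled MMS, a name left unexplained in the labels. Tissue of 20 knees went into each library. The MMS library has the time label D14, and the controls have no time label; strain and age were not stated. With 1 library per group there was no replicate check and no test, and every interval given here is at the 95% level and covers counting error only.

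Neurotrophins are secreted proteins that keep sensory and sympathetic neurons alive and sensitise pain fibres. Each mature neurotrophin binds a receptor kinase of the Trk family (BDNF binds TrkB, NT-3 binds mainly TrkC), and all of them bind p75NTR, the product of Ngfr. GDNF family ligands signal through the kinase RET together with a GFRα co-receptor, substance P signals through the NK1 receptor encoded by Tacr1, and enkephalins act on opioid receptors. Joint synovium is innervated, but the cell bodies of its sensory neurons lie in the dorsal root ganglia, outside the dissected tissue.

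The control library held 6891 kept cells and the MMS library 3765, with a median of 10990 and 17444 unique molecular identifiers (UMIs) per cell. The labelled cell type is goblet cells, yet 0 cells in either library had UMIs of 2 or more of 8 goblet markers, which allows shares of up to 0.0435% and 0.0797%; 0 cells had 3 or more of 10 sensory neuron markers. Only 4 kept barcodes occurred in both libraries. Clusters were named from markers. Fibroblast-like cells numbered 3216 in control and 1514 in MMS, endothelial-like cells 1675 and 660, macrophage or monocyte-like cells 1203 and 554, dendritic-like cells 198 and 28, mural-like cells (pericytes and smooth muscle) 144 and 181, adipocyte-like cells 28 and 55, and Schwann or glial-like cells 9 and 31. Most fibroblast-like cells fell into different clusters in the 2 libraries. In control, cluster 4 (led by Dkk2 and Sfrp2, with the tendon marker Tnmd) held 648 cells, cluster 8 (Pi16, Dpp4) 619 and cluster 5 (Cxcl14, Apod) 494. In MMS, cluster 24 (Mmp13, Lrrc15) held 550 cells and the lining-like cluster 18 (Prg4, Htra4) held 510. Levels are therefore given for whole classes and within the clusters that both libraries filled, as UMIs per 1000000 UMIs of the class or cluster (CPM).

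In fibroblast-like cells all 9 members differed by more than 2-fold between the libraries. The 4 with a higher level in MMS were Gdnf, Bdnf, Artn and Ngfr, and the 5 with a lower level were Penk, Ntrk3, Ntrk2, Tacr1 and Ntf3; for Ngfr (6 and 13 UMIs) the interval of the ratio included no difference. Among the 16114 genes with at least 10 UMIs there, 9.90% were past 2-fold higher and 9.72% past 2-fold lower. Members and lists were chosen with earlier results of these data known. Shares of all genes, here and below, therefore stand beside the member counts as description only. The 3 higher members other than Ngfr held between 38 and 89 UMIs in MMS, so they rest on few molecules, while the lower members other than Tacr1 held between 944 and 11519 UMIs in control.

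**Figure D1:**
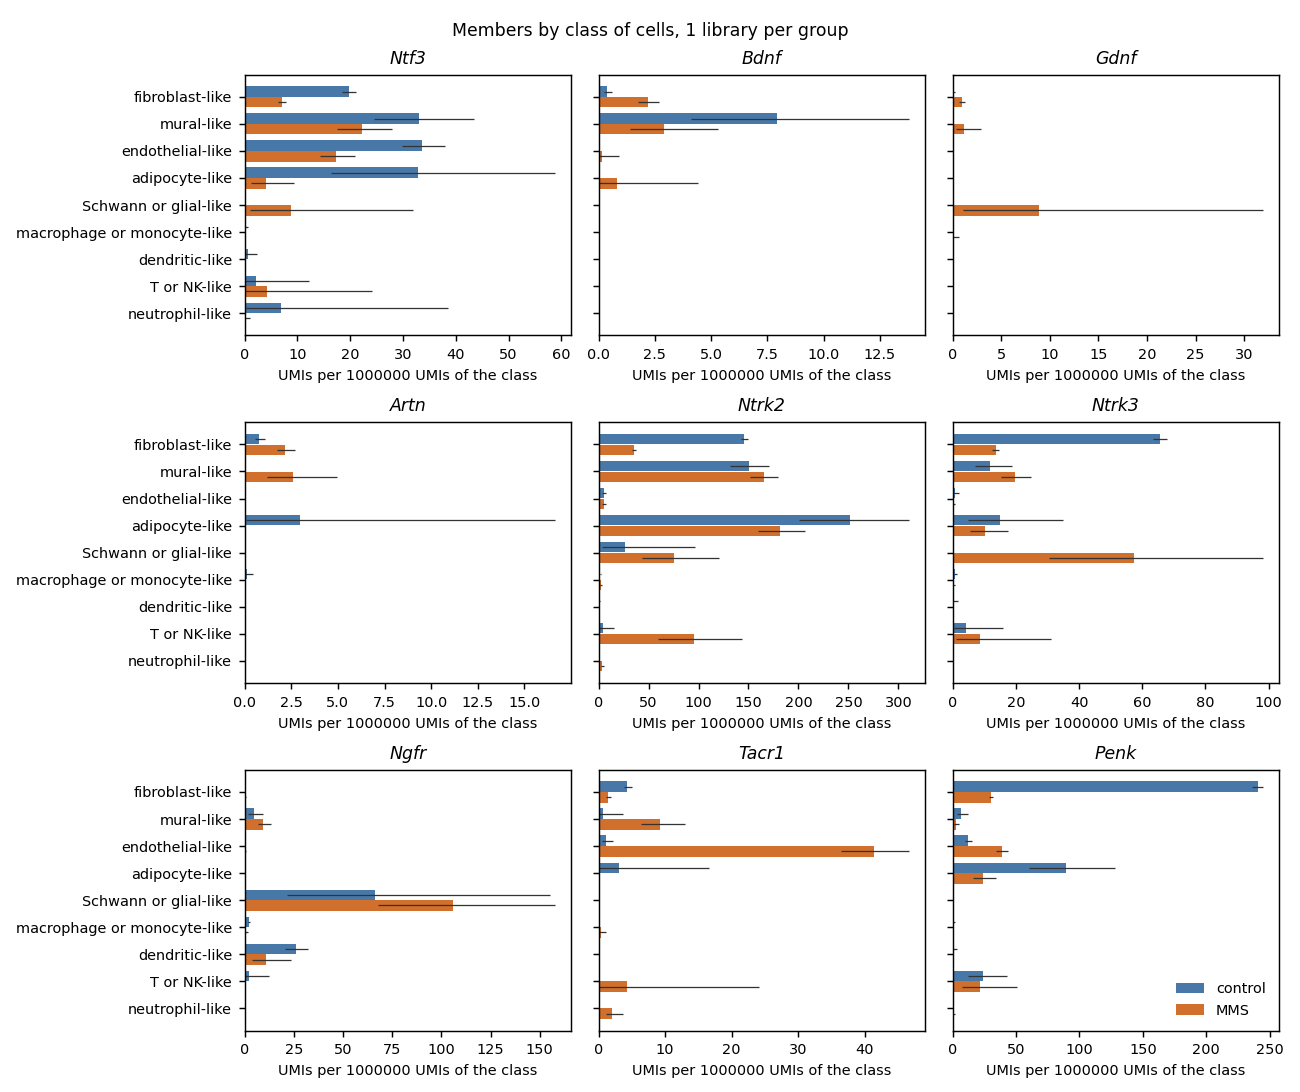
Level of each of the 9 genes in 9 classes of cells (x axis, UMIs per 1000000 UMIs of the class; blue, control; orange, MMS), with exact Poisson 95% intervals where at least 1 UMI was counted. Ntrk3 and Penk were concentrated in control fibroblast-like cells, Ntrk2 also in mural-like and adipocyte-like cells, Ngfr in Schwann or glial-like and dendritic-like cells, and Tacr1 in MMS endothelial-like cells.

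The first question was which cells hold transcripts of the neurotrophins. Ntf3 (ENSMUSG00000049107; GRCm38 chr6:126101412-126166910, minus strand) encodes NT-3, the ligand of TrkC. Its level was 33.7 CPM in control and 17.3 CPM in MMS endothelial-like cells, 32.9 and 22.3 CPM in mural-like cells, and 19.7 and 7.02 CPM in fibroblast-like cells. Macrophage or monocyte-like cells held 4 UMIs in control and 0 in MMS. Mural-like cells also held endothelial markers, at 4503 CPM in control and 2358 CPM in MMS cells with an Ntrk2 UMI, and the part of this in the mural-like level of Ntf3 was not tested. Ntf3 transcripts were found in vessel cells and fibroblasts of both libraries, and the log2 ratio of MMS over control was -1.49 (-1.69 to -1.30) in fibroblast-like, -0.96 (-1.30 to -0.63) in endothelial-like and -0.56 (-1.10 to -0.02) in mural-like cells. The mural-like value was -1.94 at a mitochondrial limit of 5% and -0.33 with every cell weighted equally. Fibroblast-like clusters did not share this difference. In cluster 5 the level was 25.3 CPM in control against 26.9 in MMS (log2 ratio 0.09, -0.24 to 0.41), whereas in the lining-like cluster 18 it was 21.4 and 3.67 CPM (-2.54, -2.99 to -2.10). The highest control level of the fibroblast-like clusters was 62.6 CPM in cluster 7 (Ccl11, Sult1e1), which held 376 control and 2 MMS cells.

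Bdnf (ENSMUSG00000048482; chr2:109674700-109727007, plus strand) encodes the brain-derived neurotrophic factor, the main ligand of TrkB. It was sparse, with 30 UMIs in 17 control cells and 143 UMIs in 79 MMS cells. Mural-like cells held 12 of the control UMIs (7.90 CPM) and 10 of the MMS UMIs (2.89 CPM), a log2 ratio of -1.45 (-2.82 to -0.11). Fibroblast-like cells held 0.376 CPM in control against 2.18 in MMS, a log2 ratio of 2.54 (1.80 to 3.36). Direction thus differed between mural-like and fibroblast-like cells, a difference that was not tested. Within cluster 24, where Bdnf was found in both libraries, the level was 6.05 CPM (7 UMIs) in control and 3.63 CPM (53 UMIs) in MMS, with no difference beyond counting error (-0.73, -1.88 to 0.65). That cluster held 43 control and 550 MMS cells. Among other fibroblast-like clusters with Bdnf in each library, cluster 18 held 2 and 24 UMIs (1.99, -0.02 to 5.11). Cluster 9 held 1 and 6 UMIs (5.61, 2.56 to 11.1), with 19 MMS cells. Cluster 6 held 7 and 2 UMIs (-1.90, -5.20 to 0.50), and cluster 5 held 1 and 2. Cluster 25, which had cells of MMS only and was led by the cartilage and tendon genes Col11a1, Fmod and Acan, added 31 Bdnf UMIs in 16 of its 229 cells. When each cell was thinned to 2000 UMIs, the share of fibroblast-like cells with a Bdnf UMI was 0.0945% in control and 0.495% in MMS.

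Bdnf has several start sites. Promoters were searched on either strand for TGANTCA, a loose form of the AP-1 motif in which N is any base. Of the 15 RefSeq promoter windows matched for 7 of the members (250 bases before to 50 after a start, GRCm38.p6), 1 window, of Bdnf, held it. Among all 32851 windows, 7.81% held it. The Bdnf match has A as its middle base, and binding of AP-1 was not tested. The stretch below is shown because this motif is the 1 match among the members; capitals mark it, 152 bases before that start, on the plus strand at chr2:109676820-109676946, and the stretch overlaps no annotated exon. The CRE motif TGACGTCA was in 0 of the 15 windows and in 1.79% of all windows.
Bdnf AP-1 stretch: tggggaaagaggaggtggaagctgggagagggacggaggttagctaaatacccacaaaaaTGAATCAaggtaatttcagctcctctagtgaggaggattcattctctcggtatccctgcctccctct

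The neurotrophin Ntf5, which encodes NT-4, another ligand of TrkB, had 1 UMI in control and 2 in MMS.

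Gdnf and Artn encode glial cell line-derived neurotrophic factor and artemin, which signal through RET with GFRα1 and GFRα3. Gdnf (ENSMUSG00000022144; chr15:7810846-7837575, plus strand) had 5 UMIs in 3 control cells, all in cluster 4, and 48 UMIs in 41 MMS cells. Of the MMS UMIs, 20 were in cluster 24, 10 in the lining-like cluster 18, 7 in cluster 6 (Cxcl12, Pcsk5) and 4 in mural-like cells. In fibroblast-like cells the level was 0.104 CPM in control against 0.932 in MMS, a log2 ratio of 3.16 (1.81 to 4.86). The clusters that held Gdnf in control and in MMS were different ones.

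Artn (ENSMUSG00000028539; chr4:117926162-117929763, minus strand) was likewise a gene of fibroblast-like cells, which held 92.7% of its 41 control UMIs and 80.9% of its 110 MMS UMIs. Its level there was 0.794 CPM in control against 2.18 in MMS, a log2 ratio of 1.46 (0.90 to 2.05). In the lining-like cluster, filled by both libraries, Artn was at 1.01 CPM (6 UMIs) and 3.34 CPM (60 UMIs), a log2 ratio of 1.73 (0.52 to 3.23). In control, 15 UMIs lay in cluster 8, where MMS had 7 cells and 0 Artn UMIs. Mural-like cells had 0 UMIs in control but 9 in MMS (2.60 CPM), a level at least 1.32-fold higher with 3 counts as the control floor.

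The co-receptors of these ligands were read in the same classes. Gfra3, the artemin co-receptor, was found almost entirely in Schwann or glial-like cells, which held all of its 14 control UMIs and 45 of its 46 MMS UMIs. Its level there was 186 CPM in 9 control cells and 199 CPM in 31 MMS cells. Gfra1, the GDNF co-receptor, was in fibroblast-like cells at 23.0 CPM in control and 20.4 in MMS, and in Schwann or glial-like cells at 79.8 and 70.8 CPM. Ret was in fibroblast-like cells at 25.8 CPM in control and 12.96 in MMS (-0.99, -1.14 to -0.85) and in endothelial-like cells at 7.23 and 41.2 CPM (2.51, 2.09 to 2.96). In the lining-like cluster, unlike fibroblast-like cells as a whole, Ret was higher in MMS, at 11.9 and 17.6 CPM (0.56, 0.18 to 0.95). Within endothelial cluster 3 (Selp, Vwf, Sele), which held 85 control and 266 MMS cells, Ret was at 65.5 and 66.3 CPM, with no difference beyond counting error (0.02, -0.42 to 0.48). Ncam1, an alternative GDNF receptor, was at 26.6 and 20.1 CPM in fibroblast-like cells (-0.40, -0.53 to -0.27).

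Most UMIs of the 2 neurotrophin receptor kinases were in fibroblast-like cells in both libraries, while the level of Ntrk2 per class was as high or higher in mural-like and adipocyte-like cells. Ntrk2 (ENSMUSG00000055254; chr13:58806569-59133970, plus strand) encodes TrkB. In control, 94.6% of its 7364 UMIs were in fibroblast-like cells, against 58.6% of 2476 UMIs in MMS, where mural-like cells held 23.1% and adipocyte-like cells 9.25%. Its level in fibroblast-like cells was 145.6 CPM (142 to 149) in control against 35.6 CPM (33.8 to 37.5) in MMS, a log2 ratio of -2.03 (-2.11 to -1.95). In mural-like cells it was 150 and 165 CPM (0.14, -0.09 to 0.36), with no fixed direction across settings (-0.28 at a mitochondrial limit of 5%, 0.62 with every cell weighted equally). In adipocyte-like cells Ntrk2 was at 251 and 182 CPM (-0.47, -0.83 to -0.09). At 2000 UMIs per cell, 24.4% of control and 7.84% of MMS fibroblast-like cells had an Ntrk2 UMI, against 29.2% and 30.1% of mural-like cells. The same shares in macrophage or monocyte-like cells, taken as background, were 0.339% and 0.370%; before thinning, at median depths of 12658 and 14572 UMIs, they were 1.41% and 1.81%. In MMS T or NK-like cells Ntrk2 had 22 UMIs, of which 20 were in 1 cell.

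Within clusters, Ntrk2 behaved unevenly. In cluster 5 its level was 260 CPM in control and 230 in MMS (-0.17, -0.28 to -0.07), and 92.7% of 494 control and 83.3% of 233 MMS cells had a UMI. In cluster 6 the levels were 122 and 13.4 CPM (-3.18, -3.82 to -2.61), with 57.5% of 127 and 9.40% of 117 cells. In cluster 24 they were 45.8 and 14.9 CPM (-1.62, -2.06 to -1.16). Lining-like cells were nearly without it in both libraries, at 1.35 and 1.67 CPM.

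Ntrk3 (ENSMUSG00000059146; chr7:78175959-78738012, minus strand) encodes TrkC, the NT-3 receptor. Fibroblast-like cells held 98.5% of its 3188 control UMIs and 82.7% of its 670 MMS UMIs. Their level was 65.6 CPM (63.3 to 67.9) in control against 13.6 CPM (12.5 to 14.8) in MMS, a log2 ratio of -2.27 (-2.40 to -2.14). Unlike Ntrk2, Ntrk3 was present in lining-like cells and was lower in MMS in each of the clusters 5, 6, 18 and 24. The levels were 52.8 and 8.27 CPM in cluster 5 (-2.68, -3.19 to -2.20), 55.9 and 21.8 CPM in cluster 6 (-1.36, -1.90 to -0.84), 52.5 and 11.2 CPM in cluster 18 (-2.23, -2.49 to -1.97), and 57.0 and 14.4 CPM in cluster 24 (-1.99, -2.39 to -1.56). In cluster 1 (Gdf10), also fibroblast-like, it was higher in MMS, on 4 control and 10 MMS UMIs (2.52, 0.73 to 4.65). In mural-like cells Ntrk3 was at 11.9 CPM (18 UMIs) and 19.7 CPM (68 UMIs; 0.73, -0.04 to 1.57). The highest control level among clusters with at least 20 cells was 114 CPM in the Pi16 and Dpp4 cluster 8, of which MMS had 7 cells. In MMS, Schwann or glial-like cells held 13 Ntrk3 UMIs (57.5 CPM) against 0 UMIs in 9 control cells; taking 3 counts as the control floor, the MMS level was at least 1.44-fold higher.

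**Figure D2:**
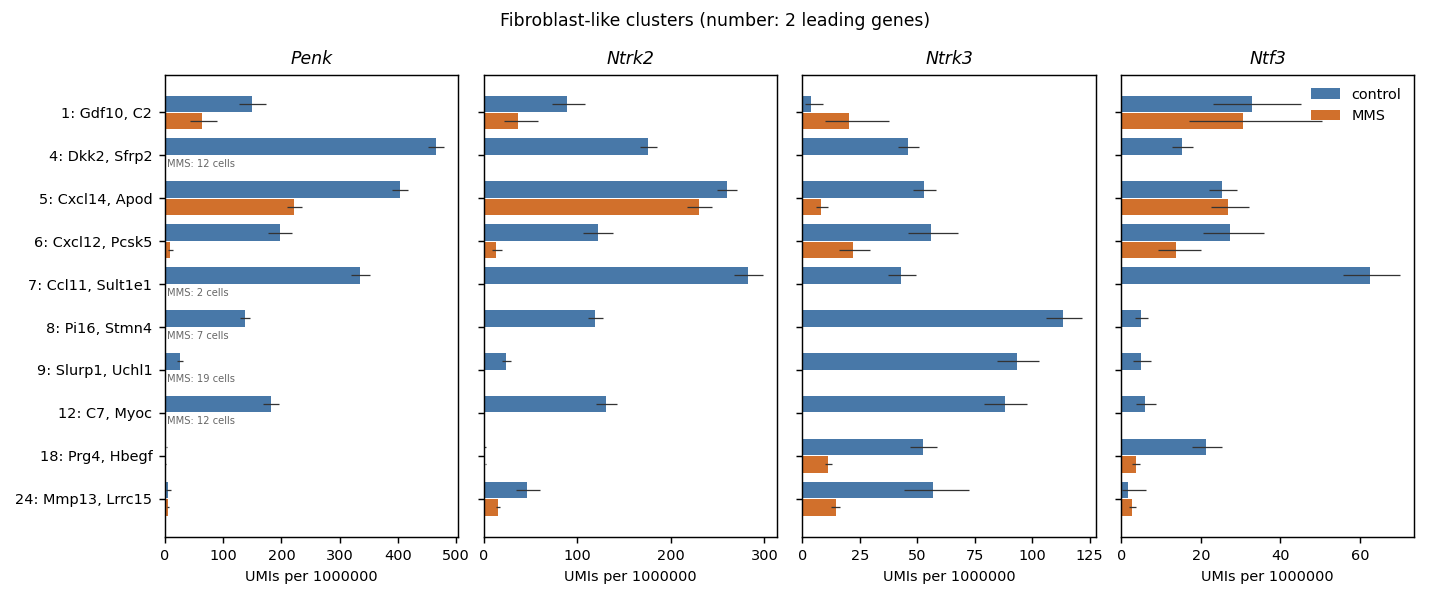
Level of Penk, Ntrk2, Ntrk3 and Ntf3 in each fibroblast-like cluster (x axis, UMIs per 1000000 UMIs of the cluster; blue, control; orange, MMS; exact Poisson 95% intervals), for clusters with at least 20 cells of the library. Cluster 5 had nearly equal Ntrk2 and Ntf3 in both libraries and less Penk and Ntrk3 in MMS, and Ntrk3 was lower in MMS in clusters 5, 6, 18 and 24.

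The libraries filled the clusters differently, so the control level of each fibroblast-like cluster was also weighted by the share of MMS fibroblast-like UMIs that the cluster held. For Ntrk3 this control level at the MMS makeup was 54.5 CPM, close to the 65.6 CPM of control, and the observed MMS level of 13.6 CPM differed from it by -2.0 on the log2 scale. For Ntrk2 the weighted level was 56.0 CPM, a log2 difference from control of -1.38, and the observed 35.6 CPM differed from it by -0.65. For Penk it was 64.3 CPM (-1.90), and the observed level differed from it by -1.08. For Ntf3 the 2 steps were -0.40 and -1.09. For Bdnf the weighted level was 2.51 CPM against the observed 2.18 CPM (-0.20), a weighted level that rests on 7 control UMIs in the 43 control cells of cluster 24. Member counts within single clusters are read against all genes measured there. In cluster 5, 1 of 5 measured members was past 2-fold lower (4.18% of genes) and 0 were past 2-fold higher (7.64%). In cluster 6, 3 of 4 were lower (5.28%) and 0 higher (7.66%). In the lining-like cluster 18, Ntf3, Ntrk3 and Penk were lower (6.75% of genes) and Artn and Bdnf higher (5.42%), Bdnf with an interval that reached -0.02. In cluster 1, Ntrk2 and Penk were lower (8.07%) and Ntrk3 higher (9.48%). The weighted levels lean on the 43 control cells of cluster 24, and which cells a cluster collects can itself differ between libraries.

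Ngfr (ENSMUSG00000000120; chr11:95568818-95587735, minus strand) encodes p75NTR, which binds all neurotrophins and marks non-myelinating Schwann cells. It was not a fibroblast gene here, with 6 UMIs in 3216 control and 13 in 1514 MMS fibroblast-like cells (log2 ratio 1.35, -0.15 to 3.03). Its highest level was in Schwann or glial-like cells, at 66.5 CPM (5 UMIs in 9 cells) in control and 106 CPM (24 UMIs in 31 cells) in MMS (0.68, -0.74 to 2.42). In control the most UMIs, 83 of 135, were in dendritic-like cells (cluster 11: Cd209a and MHC class II genes), of which 25.3% of 198 had one.

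The dendritic-like level of Ngfr was 26.0 CPM in control against 10.8 CPM (6 UMIs in 28 cells) in MMS, a log2 ratio of -1.27 (-2.76 to -0.09). It was -2.16 without the highest cell of each library and -0.39 with a minimum of 500 UMIs per cell. Ngfr was the 1 member with enough UMIs to measure there, and in that class 5.46% of genes were past 2-fold lower and 9.30% past 2-fold higher. The dendritic and macrophage marker scores of cluster 11 were nearly tied. The next myeloid cluster in order was 17 (Retnla, Ccr2, MHC class II), at 11.96 CPM in control and 6.52 in MMS (-0.88, -2.42 to 0.40). Schwann markers summed to 90.8 CPM in the 50 control dendritic-like cells with an Ngfr UMI and to 94.5 CPM in the 148 without. Mural-like cells had 4.61 CPM (7 UMIs) in control and 9.54 CPM (33 UMIs) in MMS (1.05, -0.15 to 2.47), a difference within counting error. The 14 MMS mural-like cells with an Ngfr UMI held Schwann markers at 911 CPM, against 276 CPM in the 167 without, and macrophage markers at 703 against 145 CPM; the part of these in the Ngfr level was not tested.

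**Figure D3:**
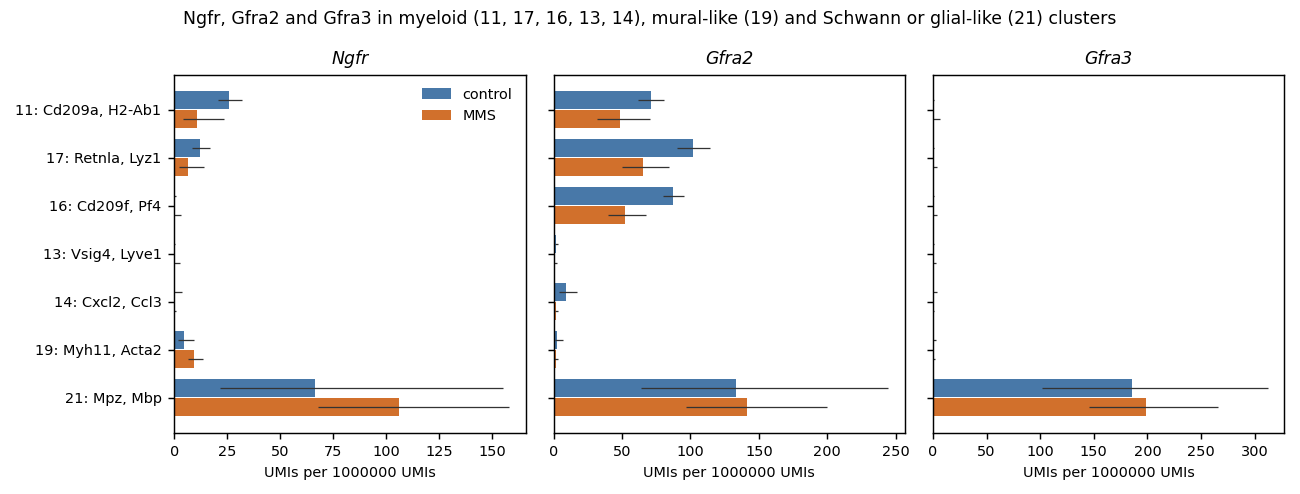
Level of Ngfr and of the co-receptors Gfra2 and Gfra3 (x axes, UMIs per 1000000 UMIs of the cluster; blue, control; orange, MMS; exact Poisson 95% intervals) in 5 myeloid clusters, the mural-like cluster and the Schwann or glial-like cluster. Ngfr and Gfra2 were both found in clusters 11, 17 and 21, while Gfra3 was found in cluster 21 and not in the myeloid clusters.

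Gfra2, the neurturin co-receptor, was at 102 CPM in control and 65.2 in MMS in cluster 17 (-0.64, -1.07 to -0.24), and at 70.8 and 48.5 CPM in dendritic-like cells (-0.55, -1.18 to 0.03). Over all macrophage or monocyte-like cells Gfra2 was at 51.0 and 15.1 CPM (-1.75, -2.03 to -1.48). Of the 4 members measured in macrophage or monocyte-like cells, 3 were past 2-fold lower (Ngfr, Ntrk3 and Penk, with 1 to 6 UMIs in MMS), against 5.11% of genes, and 0 were past 2-fold higher, against 4.86%. Sort1, which encodes sortilin, the partner of p75NTR for uncleaved neurotrophins, was at 83.0 and 87.0 CPM in mural-like cells (0.07, -0.24 to 0.38) and at 3.65 and 5.81 CPM in fibroblast-like cells (0.67, 0.38 to 0.96).

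Tacr1 (ENSMUSG00000030043; chr6:82402334-82560104, plus strand) encodes the NK1 receptor, through which substance P makes post-capillary vessels leak. In control, 154 of its 218 UMIs were in cluster 4 of the fibroblast-like cells, at 17.2 CPM. In MMS, 261 of its 398 UMIs were in endothelial-like cells. The endothelial-like level was 1.16 CPM (0.531 to 2.20; 9 UMIs in 6 cells) in control against 41.4 CPM (36.5 to 46.7; 261 UMIs in 67 cells) in MMS, a log2 ratio of 5.16 (4.21 to 6.30). Of the 4 members measured in endothelial-like cells, Tacr1 and Penk were past 2-fold higher in MMS, against 9.09% of genes, and 0 were past 2-fold lower, against 4.55%. Without the highest cell of each library the log2 ratio of Penk there was 0.89, under 2-fold.

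All but 1 of the endothelial Tacr1 UMIs were in clusters 3 and 20. In cluster 3 (Selp, Vwf, Sele) the level was 6.29 CPM (5 UMIs in 85 cells) in control against 39.3 CPM (134 UMIs in 266 cells) in MMS, a log2 ratio of 2.64 (1.38 to 4.29). In cluster 20 (Col13a1, Plvap, Esm1) it was 6.05 CPM (3 UMIs in 75 cells) and 99.2 CPM (127 UMIs in 112 cells), a log2 ratio of 4.04 (2.46 to 6.33), which was 2.92 with every cell weighted equally. Clusters 0 (Sema3g, Sox17) and 2 (Car4, Gpihbp1), which held 328 and 1187 of the 1675 control endothelial-like cells, had 1 UMI and 0 UMIs in control and 0 in MMS. In cluster 3 Tacr1 was the 1 member past 2-fold higher (8.44% of genes), and Ntf3 and Penk were past 2-fold lower (2.68%). In cluster 20 Tacr1 was again the 1 higher (9.11%), and Ntf3 was lower (4.33%), with 10 and 11 UMIs. Cell numbers in cluster 3 went the same way, with more cells in MMS than in control.

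A share of 16.2% (11.95 to 21.2) of MMS cells in cluster 3 and 21.4% (14.2 to 30.2) in cluster 20 had a Tacr1 UMI, against 2.35% and 4% in control. At 2000 UMIs per cell the shares over all endothelial-like cells were 0.199% in control and 3.32% in MMS. In MMS neutrophil-like cells, taken as background, 2 of 309 had one, with 10 of the 11 UMIs in 1 cell. Single cells weighed on the sums: 1 MMS cell held 37 Tacr1 UMIs, and without the highest cell of each library the log2 ratio in cluster 3 was 4.50, since 1 control cell held 4 of the 5 UMIs. Endothelial markers summed to 8283 CPM in the 24 MMS cells of cluster 20 with a Tacr1 UMI and to 9895 CPM in the 88 without, and fibroblast markers to 148 and 209 CPM.

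**Figure D4:**
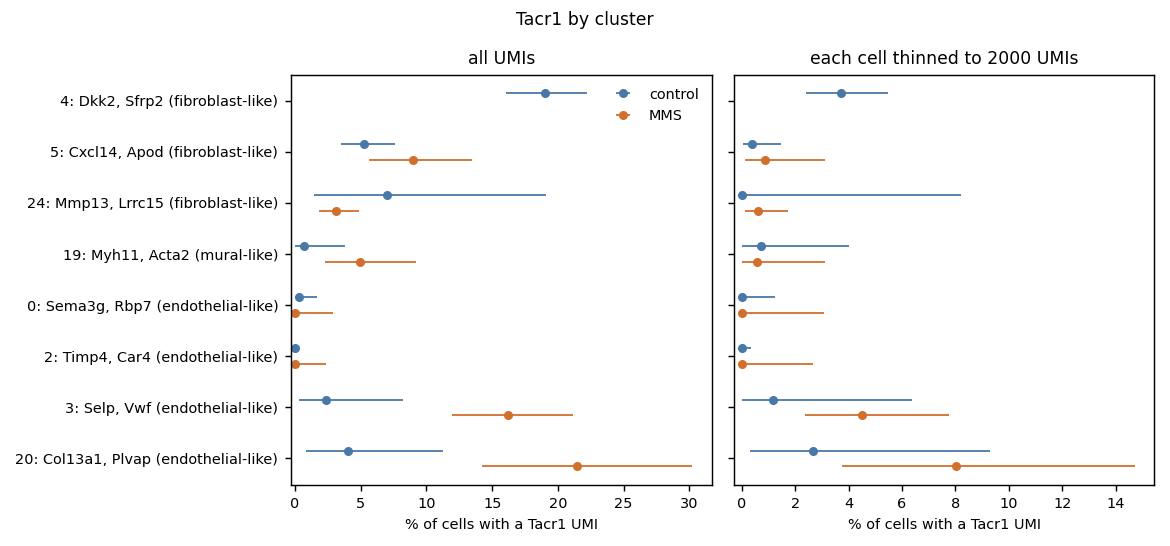
Share of cells with at least 1 Tacr1 UMI in 8 clusters (x axes, percent of cells; left, all UMIs; right, each cell thinned to 2000 UMIs; blue, control; orange, MMS), with exact Clopper-Pearson 95% intervals, for clusters with at least 20 cells of the library. Endothelial clusters 3 and 20 had shares of 16.2% and 21.4% in MMS, and clusters 0 and 2 were near 0 in both libraries.

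In fibroblast-like cells Tacr1 was lower in MMS, at 4.32 CPM in control and 1.37 in MMS (-1.65, -2.11 to -1.22). That difference rested on cluster 4, which had 648 control and 12 MMS cells: without it the log2 ratio was -0.032. In cluster 5 the direction was the other way, at 4.07 CPM (34 UMIs) and 7.0 CPM (33 UMIs; 0.78, 0.05 to 1.52). Lining-like cells had 0 Tacr1 UMIs in both libraries. Mural-like cells had 1 UMI in control and 32 UMIs in 9 cells in MMS (3.81, 1.23 to 9.16; 2.49 with every cell weighted equally, 2.84 with doublets kept); these 9 cells had a median of 37391 UMIs, against 12320 in the other MMS mural-like cells, and held fibroblast markers at 11901 CPM, against 8409 CPM. The part of depth and of these markers in that difference was not tested. Of the 7 members measured in mural-like cells, Tacr1 and Ngfr were past 2-fold higher (8.68% of genes) and Bdnf and Penk past 2-fold lower (5.98% of genes).

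Tac1, which encodes the precursor of substance P, was in fibroblast-like cells at 3.09 CPM (148 UMIs) in control and 1.79 CPM (73 UMIs) in MMS (-0.79, -1.21 to -0.37). Over all kept cells Tac1 had 150 UMIs in control and 126 in MMS (-0.25, -0.60 to 0.10). Fibroblast-like cells thus held nearly all control UMIs of Tac1 and a smaller part of its MMS UMIs. Its other tachykinin relative Tac4 had 5 UMIs in each library. Mme, which encodes neprilysin, a peptidase that degrades substance P and enkephalins, was at 62.4 and 42.0 CPM in fibroblast-like cells (-0.57, -0.66 to -0.49).

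Penk (ENSMUSG00000045573; chr4:4133531-4138819, minus strand) encodes proenkephalin, the precursor of the opioid enkephalins. Fibroblast-like cells held 98.4% of its 11712 control UMIs and 78.5% of its 1577 MMS UMIs. Their level was 240.6 CPM (236 to 245) in control against 30.4 CPM (28.7 to 32.1) in MMS, a log2 ratio of -2.99 (-3.07 to -2.90). At 2000 UMIs per cell, 29.3% of control and 5.44% of MMS fibroblast-like cells had a Penk UMI, against 0.254% and 0% of macrophage or monocyte-like cells; the MMS count was 0 of 540 cells, which allows up to 0.556%.

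By cluster, Penk was at 466 CPM in cluster 4, 404 in cluster 5 and 335 in cluster 7 of the control library, and at 2.19 CPM in the lining-like cluster. In cluster 5 the MMS level was 222 CPM (-0.86, -0.97 to -0.76), and in cluster 6 it was 8.93 CPM against 197 CPM in control (-4.46, -5.24 to -3.78). Cluster 1 had 149 and 63.2 CPM (-1.24, -1.84 to -0.68). Cluster 24 was low in both libraries, at 4.32 CPM (5 UMIs) and 4.73 CPM (69 UMIs; 0.13, -1.16 to 1.80). Clusters 1, 5 and 6 held less Penk in MMS, by different amounts. Cluster 5 held 66.4% of all MMS Penk UMIs with 233 of the 3765 cells.

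**Figure D5:**
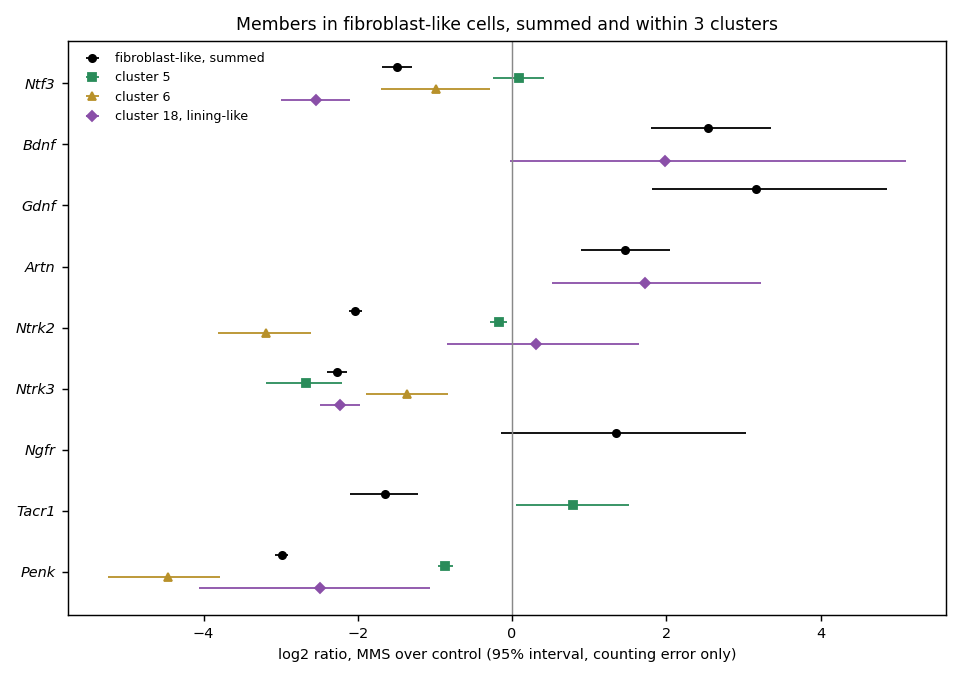
Log2 ratio of MMS over control (x axis) for the 9 genes in all fibroblast-like cells summed (black) and within clusters 5, 6 and 18 where both libraries together had at least 10 UMIs and each had at least 1, with exact conditional 95% intervals. Ntrk3 lay below 0 in all 3 clusters, while Ntrk2 was near 0 in cluster 5 (-0.17) and at -3.18 in cluster 6.

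Outside fibroblasts, Penk was in a few endothelial-like cells of cluster 20: 80 UMIs in 13 of 75 control cells and 239 UMIs in 7 of 112 MMS cells, of which 1 cell held 156. The cluster's level was 161 and 187 CPM (0.21, -0.16 to 0.60). Fibroblast markers in the Penk-bearing cells summed to 243 CPM in control and 193 CPM in MMS, against 249 and 189 CPM in the cells without Penk, and their endothelial markers to 9442 and 8419 CPM. Adipocyte-like cells had 89.7 and 23.8 CPM from 30 UMIs in each library (-1.91, -2.69 to -1.13). The 4 genes of the opioid receptor family were nearly absent. Oprm1 had 1 UMI in each library, Oprd1 and Oprk1 had 0, and Oprl1 had 2 and 4. Ackr3, an atypical receptor that binds CXCL12 and opioid peptides, was abundant, with 26248 UMIs (335 CPM) over all control cells and 20401 (261 CPM) over all MMS cells. Ogfr, the opioid growth factor receptor gene, had 2505 and 2023 UMIs.

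Co-detection was read at 2000 UMIs per cell, as a description. In control fibroblast-like cells, 33.3% of the 929 cells with a Penk UMI and 20.8% of the 2245 without also had an Ntrk2 UMI. In MMS fibroblast-like cells the shares were 36.4% of 77 and 6.20% of 1338. Within cluster 5 they were 41.0% and 40.1% in control, and 43.3% of 60 and 30.8% of 169 cells in MMS. In cluster 4, Tacr1 UMIs were in 1.68% of the 297 cells with Penk and in 5.44% of the 349 without, on 5 and 19 cells.

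Around these members stood a list of 89 genes of the same pathways. In fibroblast-like cells 67 of them had at least 10 UMIs; 17 were past 2-fold higher in MMS and 12 past 2-fold lower, against 9.90% and 9.72% of all genes measured there, with a median log2 ratio of 0.01, against 0.06 over all genes. These counts include the members, and the groups below are small. Proneurotrophin processing genes stood at 4 higher and 0 lower of 7 measured, among them Pcsk5, a convertase (28.2 to 122 CPM; 2.11, 2.03 to 2.20), and Plat, the plasminogen activator (21.7 to 55.7 CPM; 1.36, 1.25 to 1.47). Neurotrophin receptors stood at 2 higher and 2 lower of 5. Sorcs2, a sortilin relative that binds proneurotrophins, was the higher one besides Ngfr, at 4.13 CPM in control and 24.8 in MMS (2.58, 2.36 to 2.81). GDNF family ligands stood at 2 higher and 2 lower of 4, with Nrtn, which encodes neurturin, at 12.4 and 4.64 CPM (-1.42, -1.66 to -1.18). In the lining-like cluster Nrtn was higher in MMS, on 2 control and 48 MMS UMIs (2.99, 1.06 to 6.07).

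Other list genes with large ratios were spread over several groups. Ramp1, a subunit of the CGRP receptor, had the lowest ratio of those named by rule, at 28.4 CPM in control and 3.78 in MMS (-2.91, -3.16 to -2.67), while Calca, which encodes CGRP, was at 0.271 and 1.55 CPM from 13 and 63 UMIs (2.51, 1.63 to 3.50). The growth factor Mdk (midkine) was at 13.3 and 64.6 CPM (2.28, 2.16 to 2.41) and Sdc3, a syndecan that can bind GDNF family ligands, at 17.4 and 59.8 CPM (1.78, 1.67 to 1.90). The lining-like cluster held 623 of the 832 control and 1909 of the 2437 MMS Sdc3 UMIs. There Sdc3 was at 105 and 106 CPM (0.02, -0.11 to 0.15). In sublining-like and in the remaining fibroblast-like clusters its ratios were 3.67 (16 and 10 UMIs) and 1.68. The cytokine Lif was at 2.51 and 0.515 CPM (-2.28), Cntfr, a receptor subunit for ciliary neurotrophic factor, at 40.7 and 8.71 CPM (-2.23), the peptidase gene Ace at 249.9 and 53.7 CPM (-2.22), and Ndn, which encodes the p75NTR-binding protein necdin, at 163.7 and 61.4 CPM (-1.41).

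The genes whose level was most like each member's were sought over 48 cluster-by-library sums of at least 20 cells, by Pearson's r of log2(CPM + 1), given with no p because the sums share libraries and cell types. For Ntrk2 the nearest were Acss3 (0.90), Aldh1a1 (0.89) and Scn7a (0.88), and for Ntrk3 Lrrn4cl (0.89), Tnxb (0.88) and Rarres2 (0.88). For Penk they included Dkk2 (0.84) and Myoc (0.81), and for Ntf3 Tcf7l1 (0.87), Col4a1 (0.85) and Fam78b (0.85). Tacr1 lay nearest to Slco2a1 (0.72), Sele (0.70) and Apln (0.68), and Ngfr to Sept3 (0.77), Flrt3 (0.70) and Gfra2 (0.62). The sparse members Bdnf and Artn lay nearest to Gpr176 (0.79) and Wnt5b (0.78). Gdnf had too few UMIs to be ranked.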

How the data were processed

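The authors deposited raw UMI counts, whole numbers for each gene in each barcode, per the file headers and values. The headers name Cell Ranger 5.0.0, the submitters' processing notes Cell Ranger 2.0.0 and mm10; the counting options, strand included, were not stated. Exons of Bdnf and Penk overlap antisense genes: Gm45346 had 0 UMIs, and A830012C17Rik had 105 in control and 20 in MMS.

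The barcodes were 8810 (control, 84900876 UMIs) and 5286 (MMS, 85597195 UMIs). Cells with at least 1000 UMIs, 500 genes and at most 10% mitochondrial UMIs were kept; scrublet doublets were removed per library (184 of 7075; 106 of 3871). Both libraries were clustered together (scanpy, 2000 variable genes without members and list genes, Leiden resolution 1), giving 29 clusters, named from markers by thresholds set after the clusters were seen. Unnamed clusters held 316 control and 386 MMS cells.

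UMIs were summed per class; ratios (MMS divided by control) have exact conditional binomial intervals, levels have exact Poisson and shares exact Clopper-Pearson intervals (95%). A count of 0 took a floor of 3 counts per library. Coordinates come from GENCODE M21, promoters from RefSeq. Members and lists were chosen with earlier results of these data known. Named were the members, their binding partners, and the 12 other list genes with the largest absolute ratio in fibroblast-like cells and at least 50 UMIs; Gfra2, Mme and cluster-level examples were chosen after their values were seen, and 3 genes that these rules name are not reported here. On simulated counts, 95.5% of 199 changed genes had their true ratio inside the interval. Those counts were Poisson draws, which the interval itself assumes, so this checked the calculation only. It did not cover UMIs gathered in single cells or differences between animals. Alternatives are given in the closing section.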

Additional observations from a re-analysis of the deposited data

Results flagged for a closer look

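For 4 members the log2 ratio of MMS over control had opposite directions in different classes of cells, each with an interval that excluded 0. With 1 library per group these differences between classes were not tested. Tacr1 was higher in MMS in endothelial-like (5.16) and mural-like cells (3.81) and lower in fibroblast-like cells (-1.65). Bdnf was higher in fibroblast-like cells (2.54) and lower in mural-like cells (-1.45).

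Penk was higher in endothelial-like cells (1.63) and lower in adipocyte-like (-1.91) and fibroblast-like cells (-2.99). In MMS, 1 endothelial-like cell held 156 of the 245 Penk UMIs of that class. Endothelial cluster 20 held 80 of the 97 control and 239 of the 245 MMS Penk UMIs of the class. Within it the ratio was 0.21 (-0.16 to 0.60), and within cluster 3 it was -3.36 (12 and 5 UMIs). Ntrk2 was higher in T or NK-like cells (4.44), where 20 of its 22 MMS UMIs were in 1 cell, and lower in adipocyte-like (-0.47) and fibroblast-like cells (-2.03).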

How the results depend on the processing

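For 36 results, 341 values were recomputed under other settings: 288 moved by less than counting error, 50 moved beyond it and 3 changed direction; counts of list genes past 2-fold stayed within 1.5 times. All values here are log2 ratios in fibroblast-like cells unless another class, cluster or a share is named.

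Of results whose interval excluded 0, 3 changed direction. They were Ntrk2 in lining-like cells alone (0.31) and in cluster 5 with every cell weighted equally (0.045), and Tacr1 over 4 clusters (0.20). Those 4 clusters, all held by both libraries and weighted equally, were clusters 1, 5, 6 and 18. Ntrk2 in mural-like cells, whose interval included 0 (0.14), was -0.28 at a mitochondrial limit of 5% and 0.62 with every cell weighted equally. Over those 4 clusters (chosen after seeing the data) Ngfr was 5.33, Bdnf 0.72, Ntf3 -0.51, Artn 0.77, Ntrk2 -0.74, Ntrk3 -1.42 and Penk -1.35. The Ngfr value rests on 2 control UMIs in 1 cell of cluster 18, and on few MMS UMIs, 6 of them in the 52 MMS cells of cluster 1. Without cluster 4 (also chosen after seeing the data) Tacr1 was -0.032 and Penk -2.68; with cluster 25 added, Ntf3 was -1.70, Ntrk2 -2.23, Ntrk3 -2.49 and Penk -3.21. In lining-like cells alone Gdnf was at least 0.14, Ntf3 -2.54 and Penk -2.49, and in sublining-like cells alone Bdnf was 6.93 (1 control UMI), Ntf3 -0.99, Ntrk2 -1.29, Ntrk3 -0.86 and Penk -1.91.

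With every cell weighted equally Bdnf was 3.8, Ntf3 -0.99, Ntrk2 -1.51, Ntrk3 -2.09 and Penk -2.42. With a minimum of 2000 UMIs per cell Ntf3 was -1.24, Ntrk2 -1.76, Ntrk3 -2.10 and Penk -2.66, and with a mitochondrial limit of 5% Bdnf was 4.34, Ntrk2 -1.84 and Penk -2.82. Without the highest cell of each library Penk in endothelial-like cells was 0.89.

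Shares moved with the depth they were read at, and thinning also left out cells below that depth. Of the endothelial-like cells, 166 of 1675 in control and 27 of 660 in MMS were left out at 2000 UMIs. At 5000 UMIs 1171 and 191 were left out. The parts of depth and of the changed set of cells were not tested. The difference of MMS minus control, in percentage points, was at 2000 UMIs, 5000 UMIs and without thinning -23.8, -35.7 and -44.8 for Penk, -16.6, -29.9 and -39.4 for Ntrk2, -8.95, -17.7 and -23.1 for Ntrk3, and -2.45, -3.61 and -5.21 for Ntf3 in fibroblast-like cells, and 3.12, 9.21 and 9.79 for Tacr1 in endothelial-like cells.

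Dendritic-like cells did not form a class of their own at a minimum of 2000 UMIs, at a mitochondrial limit of 5%, with doublets kept or at resolution 0.5, so Ngfr has no dendritic-like value there. No paired analysis was possible because each group has 1 library. Depth limits Gdnf, Bdnf, Artn and Ngfr most.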

Other observations

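Sort1, the sortilin gene, was also a neutrophil-like gene in the MMS library. Neutrophil-like cells there held 264 Sort1 UMIs (49.8 CPM) against 1 UMI in the 20 control neutrophil-like cells. In adipocyte-like cells Sort1 was at 56.8 CPM in control and 72.3 CPM in MMS. Mme, the neprilysin gene, was at 176 CPM (59 UMIs in 28 cells) in control and 469 CPM (591 UMIs in 55 cells) in MMS adipocyte-like cells. That was the opposite direction from fibroblast-like cells as a whole. In endothelial-like and mural-like cells Mme was past 2-fold higher in MMS as well. In the lining-like cluster it was higher too, on 2 and 31 UMIs (2.36, 0.38 to 5.47). It was lower in sublining-like clusters (-1.73) and in the remaining fibroblast-like clusters (-0.33). These differences between classes were not tested.

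Transcripts of Gfra1 and Ret, whose products together bind GDNF, were both in fibroblast-like cells. At 2000 UMIs per cell, 3.83% of the 183 control cells with a Ret UMI and 3.74% of the 2991 without had a Gfra1 UMI, on 7 and 112 cells.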
